A study of Mus musculus with 4 samples.

Results

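Adult hippocampal neurogenesis was followed through 9 marker genes, Nes, Eomes, Mki67, Top2a, Sox11, Sox4, Dcx, Neurod1 and Igfbpl1, taken by symbol and matched to their Ensembl gene IDs in the mouse build GRCm38. All 9 were listed in each of the 4 samples, among 26328 genes listed in at least 1 sample. RNA-seq was performed on poly(A) RNA from the hippocampus of male C57BL/6 mice, with 2 wild type (WT) and 2 Lsd1 knock-in (KI) samples. In the KI mice a serine of LSD1 that PKCα phosphorylates is replaced by alanine, and the transcript of this histone demethylase is still made. The labels give an age of 8 to 15 weeks for the behavioural mice and no separate age for the mice of the RNA-seq. They do not say whether a sample was 1 mouse or a pool. The authors describe the WT mice as littermates of the KI mice, for behaviour and for RNA-seq. The values are RPKM, in which reads are scaled to the exon length of a gene and to the mapped reads of a sample, so levels can be compared between genes per length. The depth, as worked out from the whole-read steps of the values and rounded, came to 13400000 and 8800000 mapped reads for WT and to 14400000 and 14900000 for KI, with replicate 1 given before replicate 2 here and in all pairs of values that follow. The steps do not show whether the authors counted single reads or pairs.

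New granule neurons are made throughout life in the subgranular zone of the dentate gyrus. Radial glia-like stem cells, which contain the intermediate filament nestin (Nes), give rise to intermediate progenitors that switch on the T-box factor Tbr2 (Eomes), divide, and turn into neuroblasts. Neuroblasts and immature neurons contain doublecortin (Dcx), a microtubule-binding protein needed for migration, and are driven by the SOXC factors Sox4 and Sox11 and the bHLH factor Neurod1, before they mature into granule cells. Cells of the lineage are a small part of the hippocampus, and in bulk tissue fewer cells of a type and less RNA per cell cannot be told apart. Several of the markers are also used outside the lineage. Neurod1 stays on in mature granule cells, nestin is made by vessel cells, Sox4 and Sox11 are found in oligodendrocyte precursors, and any dividing cell transcribes Mki67 and Top2a.

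No difference between WT and KI hippocampus that passed the test was found in the newborn neuron markers, and of the progenitor and cell-cycle markers only Nes was high enough to be tested. Neurod1, Sox11 and Nes were 15.5%, 17.7% and 17.6% lower in mean RPKM in KI, and Dcx was 1.14-fold and Eomes 1.27-fold higher. In each of these 5 genes the groups did not overlap, as in 42.2% of all genes tested (24.0% higher and 18.1% lower in KI). Eomes was not tested and rests on 10 to 25 reads per sample. After quantile normalization the groups of Dcx overlapped. Of the 9 genes, 6 reached 0.5 RPKM in at least 2 samples and were tested, and 0 of the 6 were called in limma, where a call needs an adjusted p below 0.1 and at least a 1.2-fold difference in RPKM + 1. Over all 18436 genes tested 0% were called, and with 2 samples per group a missing call does not show that a gene was unchanged. An unadjusted p below 0.05 was found for 0 of the 6 markers and for 9.62% of all genes tested (6.30% higher and 3.33% lower in KI).

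The proliferation markers are shown first with their promoters, because Mki67 and Top2a are the members whose upstream sequence carries each of 2 motifs typical of cell-cycle genes more than once. These are CCAAT, the box bound by NF-Y, and TTTGAA, the core of the cell cycle homology region. The 250 bases before the start of each gene were taken from RefSeq (GRCm38.p6), on the strand of the gene and 5′ to 3′, and both motifs were searched on both strands (CCAAT reads ATTGG on the other strand, and TTTGAA reads TTCAAA). Capitals mark the matches, none of which overlap. The windows are chr7:135716380-135716629 (minus strand) for Mki67 and chr11:99024190-99024439 (minus strand) for Top2a.
Mki67: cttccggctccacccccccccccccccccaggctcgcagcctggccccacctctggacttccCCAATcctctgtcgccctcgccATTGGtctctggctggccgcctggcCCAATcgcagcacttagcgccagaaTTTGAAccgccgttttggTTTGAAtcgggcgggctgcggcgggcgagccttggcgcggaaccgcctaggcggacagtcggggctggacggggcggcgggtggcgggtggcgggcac
Top2a: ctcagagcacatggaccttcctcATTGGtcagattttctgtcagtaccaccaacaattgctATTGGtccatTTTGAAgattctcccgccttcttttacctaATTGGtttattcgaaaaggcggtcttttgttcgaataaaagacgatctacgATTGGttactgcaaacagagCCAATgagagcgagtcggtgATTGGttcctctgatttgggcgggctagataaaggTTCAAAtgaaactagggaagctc
The Top2a window holds 6 CCAAT matches and 2 TTTGAA matches, and the Mki67 window holds 3 and 2. Of 32851 windows of the same length, 33.8% hold at least 1 CCAAT match, 2.79% at least 3 and 0.0578% at least 6, and 16% hold at least 1 TTTGAA match. Sox4 has 4 CCAAT matches, Eomes 2 and Sox11 1, and the windows of Nes and Neurod1 hold 0. Dcx has 2 annotated starts, of which 1 has a single match. Of the 9 members, 8 matched the table, with 9 windows in all. The letters CACGTG, the E-box bound by CLOCK:BMAL1, are in 0 of the 9 windows and in 6.02% of all windows. A match describes letters only, and RNA-seq does not measure binding.

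Mki67 (ENSMUSG00000031004, chr7:135689784-135716361, minus strand), which encodes the nuclear protein Ki-67 of dividing cells, was at 0.274 and 0.259 RPKM in WT and at 0.262 and 0.305 RPKM in KI. These values rest on 37, 23, 38 and 46 reads. The groups overlapped, since KI replicate 1 lay between the WT samples and KI replicate 2 above them. Top2a (ENSMUSG00000020914, chr11:98992943-99024189, minus strand), the topoisomerase that untangles replicated DNA, was at 0.108 and 0.189 RPKM in WT and at 0.162 and 0.111 RPKM in KI, on 13, 15, 21 and 15 reads. Its WT samples lay farther apart than any KI sample lay from either of them. Neither gene reached the expression filter, so no test was made in the main comparison. Without a filter the unadjusted limma p was 0.774 for Mki67 and 0.849 for Top2a, with adjusted p of 0.945 and 0.968. The sum of the pair ran from 0.381 to 0.447 RPKM in WT and from 0.417 to 0.424 RPKM in KI, so that the KI samples lay within the WT range. The exact 95% Poisson interval of Top2a, which covers counting error only, ran from 0.0572 to 0.184 RPKM in WT replicate 1 and from 0.106 to 0.311 RPKM in WT replicate 2. A difference of the size seen between these WT samples was therefore not resolvable at this depth.

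**Figure D1:**
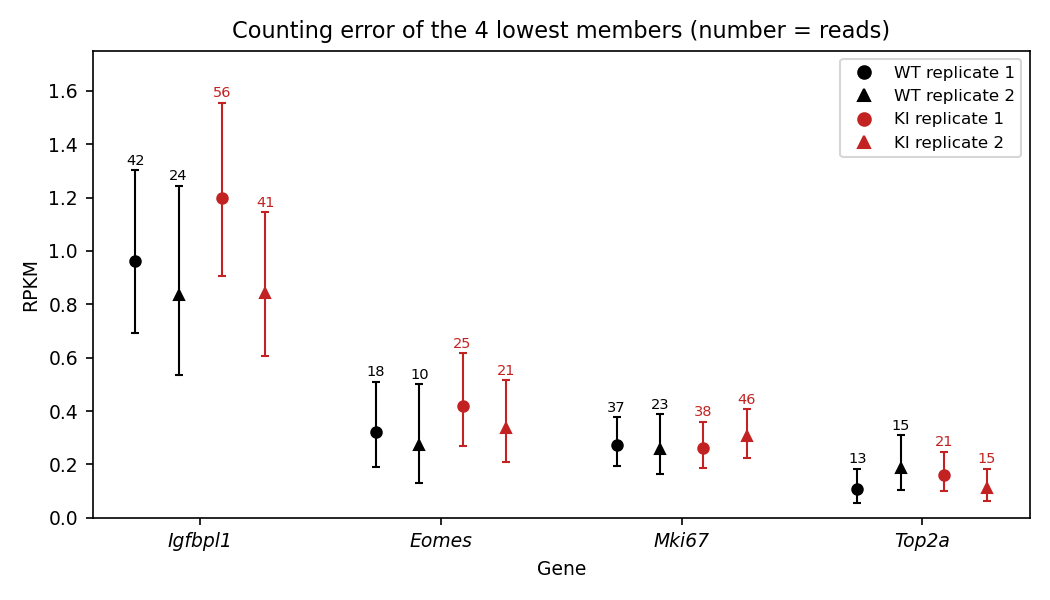
RPKM of the 4 lowest markers in each sample, with exact 95% Poisson intervals for counting error and the number of reads above each bar (WT black, KI red, circles replicate 1, triangles replicate 2). The intervals of all 4 samples overlap within each gene, for example on 10 to 25 reads per sample for Eomes.

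Eomes (ENSMUSG00000032446, chr9:118478212-118486132, plus strand), the marker of intermediate progenitors, was at 0.323 and 0.273 RPKM in WT and at 0.418 and 0.338 RPKM in KI. The values rest on 18, 10, 25 and 21 reads. The KI samples were each higher than either WT sample, but the lower KI sample exceeded the higher WT sample by less than the counting error of either, which was 21.8% and 23.6% of the value. Eomes was below the expression filter, and without the filter limma gave an unadjusted p of 0.312 and an adjusted p of 0.768. In WT replicate 2 the Poisson interval of Eomes ran from 0.131 to 0.501 RPKM.

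Nes (ENSMUSG00000004891, chr3:87971078-87980451, plus strand) was at 2.57 and 2.42 RPKM in WT and at 2.22 and 1.89 RPKM in KI, on 221, 137, 205 and 181 reads. All KI values lay below the WT values, and the gap between the nearest samples of the groups was smaller than the gap between the KI samples. The difference in log2(RPKM + 1) was -0.20 (SE 0.11, 95% interval -0.47 to 0.08, adjusted p = 0.605 from limma). The limits correspond to KI values of RPKM + 1, not of RPKM, between 0.720 and 1.06 times those of WT. Without KI replicate 2 the difference was -0.12. Among vessel cell genes, the other main source of nestin, the summed level of the 12 listed genes was 73.0 and 78.0 RPKM in WT and 77.2 and 78.7 RPKM in KI, with a median difference of 0.03 and 0 of the 12 called in limma. Their part in the level of Nes was not tested.

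Dcx (ENSMUSG00000031285, chrX:143855842-143933311, minus strand) was at 1.51 and 1.33 RPKM in WT and at 1.65 and 1.59 RPKM in KI. The reads behind it were 256, 149, 300 and 301. The KI samples lay close together and above both WT samples, of which replicate 2, the sample of lowest depth, was the lowest. The difference in log2(RPKM + 1) was 0.11 (SE 0.11, 95% interval -0.16 to 0.39, adjusted p = 0.769 from limma). The limits correspond to KI values of RPKM + 1 between 0.892 and 1.31 times those of WT, which spans a wider range of RPKM itself. Without WT replicate 2 the difference was 0.06. After quantile normalization the WT and KI values of Dcx overlapped.

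Sox11 (ENSMUSG00000063632, chr12:27334264-27342574, minus strand) was at 1.89 and 1.86 RPKM in WT and at 1.52 and 1.56 RPKM in KI, on 204, 132, 176 and 188 reads. Relative to its level it had tighter groups than the other 8 genes, with a mean of 1.87 ± 0.02 RPKM in the WT samples against 1.54 ± 0.03 RPKM in the KI samples (SD, 2 of each). The values of the groups did not overlap, but their Poisson intervals did, with 1.55 to 2.20 RPKM in WT replicate 2 and 1.35 to 1.80 RPKM in KI replicate 2. The spread between replicates was smaller than the counting error, which was 7.0% and 8.70% of the value in WT and 7.54% and 7.29% in KI. The difference in log2(RPKM + 1) was -0.18 (SE 0.10, 95% interval -0.43 to 0.08, adjusted p = 0.609 from limma). limma sets the error of a gene partly from all genes of like level, so the small spread of Sox11 did not by itself give a small p.

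Sox4 (ENSMUSG00000076431, chr13:28948919-28953713, minus strand), the other SOXC factor, was at 3.62 and 3.87 RPKM in WT and at 4.55 and 3.79 RPKM in KI. The higher mean of KI came from replicate 1 (314 reads), whereas KI replicate 2 (272 reads) lay between the WT samples. The difference in log2(RPKM + 1) was 0.12 (SE 0.11, 95% interval -0.16 to 0.40, adjusted p = 0.756 from limma), and it was 0.01 without KI replicate 1. Sox4 and Sox11 act on overlapping targets, and their summed level was 5.51 and 5.73 RPKM in WT and 6.07 and 5.36 RPKM in KI. The ratio of Sox4 to Sox11, which does not depend on the scaling of a sample, was 1.92 and 2.09 in WT and 2.996 and 2.43 in KI. It was chosen after the levels had been seen, among 8 ratios computed, and was not tested.

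Neurod1 (ENSMUSG00000034701, chr2:79452521-79456751, minus strand) was the most abundant of the 9 genes, at 9.81 and 10.3 RPKM in WT and at 7.90 and 9.09 RPKM in KI, on 359, 248, 310 and 371 reads. Both KI samples lay below both WT samples. The gap of the KI samples between themselves was wider than the gap from the higher KI to the lower WT sample. The difference in log2(RPKM + 1) was -0.22 (SE 0.09, 95% interval -0.45 to 0.01, unadjusted p = 0.0541, adjusted p = 0.518 from limma), the smallest p of the 6 tested markers. It was -0.13 without KI replicate 1 and -0.31 without KI replicate 2.

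Igfbpl1 (ENSMUSG00000035551, chr4:45809468-45826923, minus strand), a secreted protein related to the IGF-binding proteins and found in neuroblasts, was at 0.963 and 0.837 RPKM in WT and at 1.198 and 0.844 RPKM in KI. The reads were 42, 24, 56 and 41. KI replicate 1 was the highest sample, and KI replicate 2 lay within the WT range. The difference in log2(RPKM + 1) was 0.08 (SE 0.14, 95% interval -0.29 to 0.46, adjusted p = 0.889 from limma), and its sign turned without KI replicate 1. Igfbpl1 is on the chromosome of Kdm1a, the gene of LSD1, whose own level was 11.6 and 11.2 RPKM in WT and 10.97 and 11.2 RPKM in KI. The exchanged codon cannot be seen in RPKM, so the level of Kdm1a does not check the genotype labels.

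**Figure D2:**
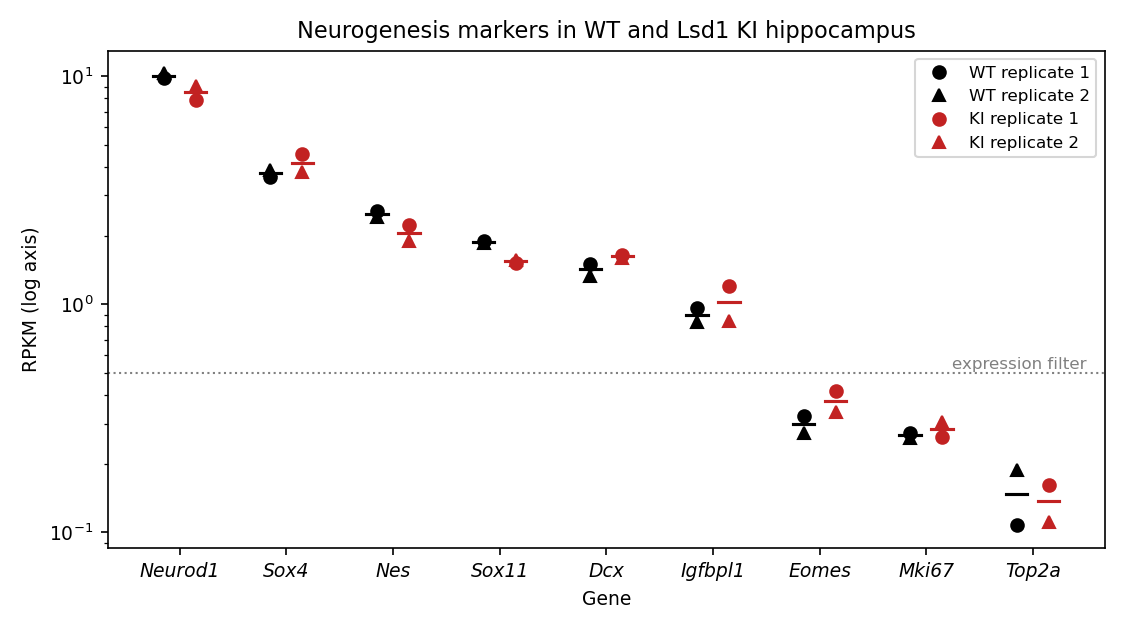
RPKM of the 9 markers in each sample on a log axis, ordered by mean level (WT black, KI red, circles replicate 1, triangles replicate 2, bars the mean of 2 samples, dotted line the expression filter of 0.5 RPKM). Neurod1 lies highest, Eomes, Mki67 and Top2a lie below the filter, and the samples of Sox11 lie closest together within each group.

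The order of levels was the same in all 4 samples for each pair of neighbouring genes other than Sox11 and Dcx. Neurod1 (mean of 9.27 RPKM over the 4 samples, above 74.3% of all listed genes) was followed by Sox4 (3.96 RPKM), and no value of either overlapped with the next gene. Nes (2.27 RPKM) and Sox11 (1.71 RPKM) had overlapping ranges, as had Sox11 and Dcx (1.52 RPKM). In WT Sox11 was above Dcx, with ratios of Dcx to Sox11 of 0.799 and 0.719, and in KI Dcx was above Sox11, with ratios of 1.09 and 1.02. The Poisson intervals of the pair overlapped in each sample. In KI replicate 2 they ran from 1.42 to 1.78 RPKM for Dcx and from 1.35 to 1.80 RPKM for Sox11. Like that of Sox4 to Sox11, this ratio was not tested. Igfbpl1 (0.960 RPKM) lay below Dcx in every sample and above Eomes (0.338 RPKM). Eomes and Mki67 (0.275 RPKM) overlapped in range, and Top2a (0.142 RPKM, above 18.4% of listed genes) was the lowest in each sample.

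Across the 9 genes the direction of difference was mixed. In Dcx and Eomes, 2 of the 9, the KI samples were each higher than either WT sample, which was the case in 24.0% of all genes tested, and in 3 (Neurod1, Sox11 and Nes) each was lower, which was the case in 18.1%. In either direction the groups did not overlap in 5 of the 9 markers (55.6%), against 42.2% of all genes tested. The sets are unlike, since the 42.2% covers only genes that passed the filter and the 9 include Eomes, Mki67 and Top2a, which did not. Among the 6 tested markers the groups did not overlap in Dcx, Neurod1, Sox11 and Nes, and overlapped in Sox4 and Igfbpl1. The shares were not compared by a test. With 2 samples on each side a two-sided exact permutation p cannot go below 0.333, the value of each of the 5 genes whose groups did not overlap. After quantile normalization the shares over all genes were 19.2% higher and 22.9% lower. The median difference in log2(RPKM + 1) was -0.05 over the 6 tested markers and 0.01 over all genes tested, and it was 0.02 over the 9 markers with those below the filter. Summed over the 9 markers, the level was 21.1 and 21.3 RPKM in WT and 19.9 and 19.5 RPKM in KI. Neurod1 makes up the largest part of this sum. The sum of the 5 newborn neuron markers (Dcx, Sox11, Sox4, Neurod1 and Igfbpl1) was 17.8 and 18.2 RPKM in WT and 16.8 and 16.9 RPKM in KI. Neurod1, which stays on in mature granule cells, is also the largest part of that sum, with 9.81 and 10.3 RPKM in WT and 7.90 and 9.09 RPKM in KI. Among the rest, Sox11 had a lower mean in KI, and Dcx, Sox4 and Igfbpl1 had a higher one.

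**Figure D3:**
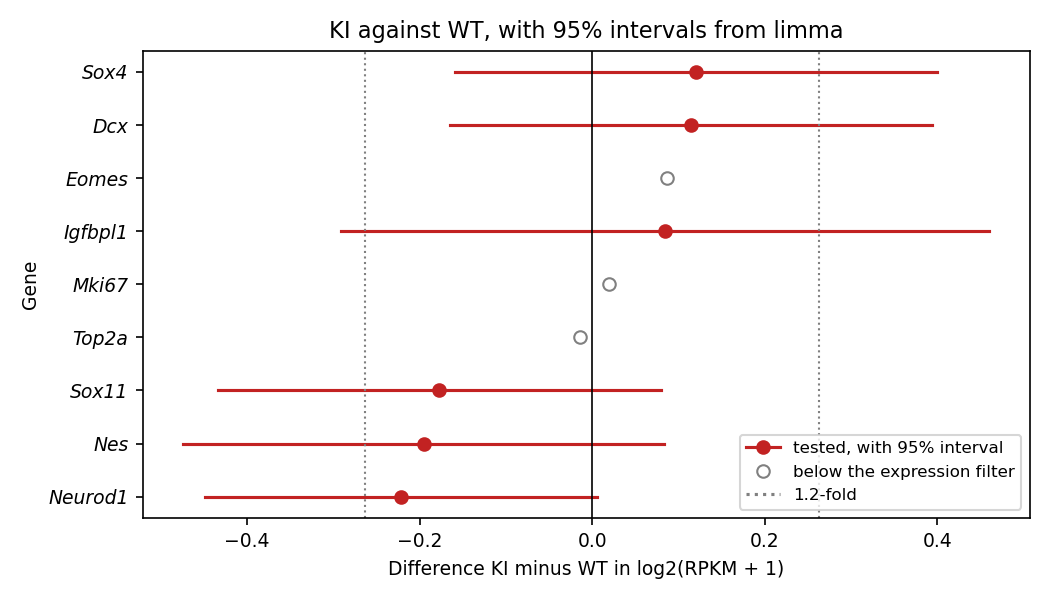
Difference between KI and WT in log2(RPKM + 1) for each marker, with 95% intervals from limma for the 6 tested genes (red) and without an interval for the 3 genes below the expression filter (open circles). Every interval includes 0, and those of Neurod1, Nes and Sox11 reach past the dotted line of 1.2-fold on the lower side only.

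KI replicate 1 held the highest value of 4 of the 9 markers (Eomes, Dcx, Sox4 and Igfbpl1) and the lowest value of 2 (Sox11 and Neurod1). The same sample stood apart in Ttr, the transthyretin gene of choroid plexus, with 51.3 RPKM against 8.13 and 13.8 RPKM in WT and 8.89 RPKM in KI replicate 2. The summed level of 9 ependymal and choroid plexus genes was 75.5 RPKM in KI replicate 1 and between 25.2 and 32.2 RPKM in the other samples, and none of the 9 was at 0 in all samples. Ttr made up most of the sum in that sample. Of the 7 tested, 0 were called in limma, and their median difference was 0.16. Ttr was not the gene of the list with the smallest p. Kl, which encodes klotho, was at 4.87 and 5.14 RPKM in WT and at 7.05 and 6.72 RPKM in KI, and Ccdc153, a gene of ciliated ependymal cells, was at 4.805 and 5.84 RPKM in WT and at 3.65 and 2.22 RPKM in KI. Their adjusted p in limma was 0.340 and 0.475. Clic6, like Ttr and unlike Ccdc153, had its highest value in KI replicate 1. It was at 0.667 and 0.347 RPKM in WT and at 1.17 and 0.564 RPKM in KI, on 35, 12, 66 and 33 reads. Without KI replicate 1 the difference in log2(RPKM + 1) was 0.04 for Eomes, 0.10 for Dcx, 0.01 for Sox4, -0.04 for Igfbpl1, -0.13 for Neurod1, -0.17 for Sox11 and -0.27 for Nes.

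Genes of mature granule cells, the neurons that the lineage produces, had mostly lower values in KI. Of 10 granule cell genes, all tested, 7 had both KI values below both WT values and 0 had them above, the median difference was -0.36 in log2(RPKM + 1), and 6 had an unadjusted limma p under 0.05, all lower in KI. Over all genes tested these shares were 18.1% for groups apart with KI lower and 3.33% for the unadjusted p. None of the 10 was called in limma. The difference was smallest in Rbfox3 (-0.01) and Ntng1 (-0.06). The list was chosen with earlier results of these data known, and its genes are not independent observations. How far cell number, RNA per cell or the share of dentate gyrus in a sample played a part was not tested. Prox1, the homeobox factor that specifies granule cells, was at 17.3 and 16.9 RPKM in WT and at 10.2 and 13.1 RPKM in KI (adjusted p = 0.405 from limma). C1ql2, a synaptic organizer of mossy fibres, was at 41.8 and 44.0 RPKM in WT and at 30.7 and 34.2 RPKM in KI (adjusted p = 0.336 from limma). Plk5, at 11.5 and 12.2 RPKM in WT and 7.22 and 8.89 RPKM in KI, and Lct, at 10.97 and 10.8 RPKM in WT and 8.12 and 8.79 RPKM in KI, also had groups that did not overlap. The summed level of the 10 genes was 204 and 210 RPKM in WT and 153 and 180 RPKM in KI.

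Among 18 radial glia-like stem cell genes, 17 were tested and 0 were called in limma. In 3 of the 17 the KI samples were each higher than either WT sample and in 3 below, against 24.0% and 18.1% of all genes tested, with a median difference of -0.03. Fabp7, a fatty acid-binding protein of radial glia and astrocytes, was at 10.1 and 12.0 RPKM in WT and at 6.68 and 6.80 RPKM in KI (difference of -0.64 in log2(RPKM + 1), 95% interval -0.88 to -0.39, unadjusted p = 0.00146, adjusted p = 0.307 from limma). Thrsp was at 19.7 and 21.02 RPKM in WT and at 24.1 and 26.5 RPKM in KI, and the receptor Notch2 was at 4.43 and 4.81 RPKM in WT and at 3.73 and 3.65 RPKM in KI. Sox2, which keeps stem cells undifferentiated and is also made by astrocytes, was at 15.4 and 15.9 RPKM in WT and at 18.0 and 16.5 RPKM in KI.

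Of 7 further genes of intermediate progenitors, 6 were tested and 0 were called in limma, with a median difference of 0.18 in log2(RPKM + 1). Neurog2, the proneural factor that acts upstream of Eomes, was at 0.435 and 0.458 RPKM in WT and at 1.37 and 0.721 RPKM in KI, on 13, 9, 44 and 24 reads (adjusted p = 0.522 from limma). As with Eomes, KI replicate 1 held its highest value. Sstr2 was at 3.58 and 4.55 RPKM in WT and at 4.90 and 5.31 RPKM in KI, and Mfap4, with lower values in KI, was at 2.44 and 2.53 RPKM in WT and at 2.28 and 2.02 RPKM in KI. These were the 2 genes with both KI samples higher and the 1 with both lower among the 6 tested, against 24.0% and 18.1% of all genes tested.

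Of 28 genes of DNA replication and mitosis, 14 were tested, 0 were called in limma and 0 had an unadjusted p under 0.05. The KI samples were each higher than either WT sample in 2 of the 14 and below in 3, against 24.0% and 18.1% of all genes tested, and the median difference was -0.05. In 18 of the 28 genes no sample reached 1 RPKM. Ccna2, the gene of cyclin A2 and higher in both KI samples, was at 2.46 and 2.42 RPKM in WT and at 2.63 and 2.74 RPKM in KI. The 3 genes below were Mcm6, Mcm5 and Mcm2, which encode subunits of the replicative helicase and were not tested as a group. Mcm6 was at 6.58 and 5.54 RPKM in WT and at 4.29 and 5.46 RPKM in KI, Mcm5 at 1.72 and 1.89 RPKM in WT and at 1.36 and 1.56 RPKM in KI, and Mcm2 at 1.92 and 1.92 RPKM in WT and at 1.73 and 1.49 RPKM in KI. The adjusted p of these 3 ran from 0.587 to 0.663 in limma.

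Of 20 other genes of neuroblasts and immature neurons, 19 were tested and 0 were called in limma. In 6 of the 19 the KI samples were each higher than either WT sample and in 2 below, against 24.0% and 18.1% of all genes tested, and the median difference was 0.01. Fxyd7, a regulator of the sodium pump, was at 30.4 and 30.5 RPKM in WT and at 43.1 and 40.0 RPKM in KI (difference of 0.44 in log2(RPKM + 1), 95% interval 0.29 to 0.58, adjusted p = 0.307 from limma). Tubb3, the neuronal tubulin, was at 105 and 116 RPKM in WT and at 129 and 124 RPKM in KI. The bHLH factors Neurod2, at 49.0 and 51.7 RPKM in WT and 43.6 and 45.4 RPKM in KI, and Bhlhe22, at 33.1 and 31.3 RPKM in WT and 24.7 and 29.3 RPKM in KI, had lower values in KI, like Neurod1. All 4 are also transcribed in mature neurons.

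Among 25 ligands, inhibitors and receptors of the niche, 23 were tested and 0 were called in limma. The KI samples were each higher than either WT sample in 9 of the 23 and below in 2, against 24.0% and 18.1% of all genes tested, with a median difference of 0.08. Vegfa, the vessel growth factor, was at 17.7 and 18.0 RPKM in WT and at 20.6 and 21.1 RPKM in KI, and midkine (Mdk) was at 3.72 and 5.22 RPKM in WT and at 6.30 and 5.56 RPKM in KI. Noggin (Nog), which blocks BMP signals in the subgranular zone, was at 1.86 and 2.30 RPKM in WT and at 2.71 and 2.54 RPKM in KI, and the ligand Bmp6 at 2.10 and 1.88 RPKM in WT and at 1.5003 and 1.33 RPKM in KI. Their adjusted p ran from 0.408 to 0.569 in limma.

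**Figure D4:**
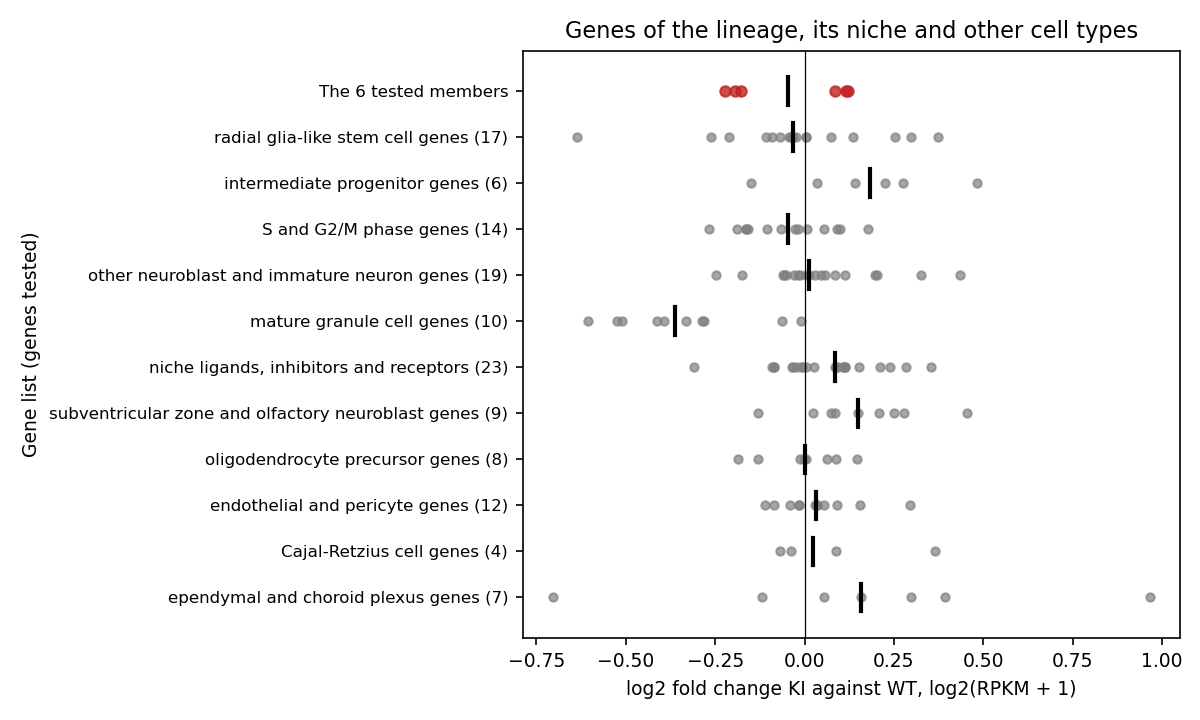
log2 fold change of KI against WT on the log2(RPKM + 1) scale for each tested gene of the markers (red) and of 11 gene lists (grey), with the median of each list as a black bar and the number of genes tested in parentheses. The granule cell genes have the lowest median (-0.36), and the 6 tested markers spread from -0.22 to 0.12.

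Markers of other cells that hold Dcx, Sox4, Sox11 or dividing cells were compared in the same way. Of 10 genes of the subventricular zone and its olfactory neuroblasts, which lie outside the hippocampus, 9 were tested and 0 were called in limma. The KI samples were each higher than either WT sample in 3 of the 9 and below in 1, against 24.0% and 18.1% of all genes tested, and the median difference was 0.15. Their summed level was 41.3 and 38.0 RPKM in WT and 44.9 and 41.7 RPKM in KI, with 0 of the 10 at 0 in all samples. Sp8, a zinc finger factor of that lineage, was at 0.483 and 0.506 RPKM in WT and at 1.21 and 0.896 RPKM in KI (adjusted p = 0.479 from limma), and Dlx6 at 1.82 and 1.81 RPKM in WT and at 3.04 and 1.89 RPKM in KI. Meis2 was at 5.27 and 4.76 RPKM in WT and at 6.16 and 6.14 RPKM in KI. Robo2, the gene with both KI samples lower, was at 7.79 and 7.28 RPKM in WT and at 6.84 and 6.76 RPKM in KI. The 8 oligodendrocyte precursor genes, of which 0 were called in limma, had a median difference of 0.00 and summed to 132 and 140 RPKM in WT and 147 and 124 RPKM in KI. The part of these cells in the levels of the markers was not tested.

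The samples carried the defining genes of hippocampus in every library, and the summed level of 8 hippocampal genes was 181 and 182 RPKM in WT and 163 and 188 RPKM in KI. Genes listed as markers of neocortex, striatum, thalamus and Cajal-Retzius cells were also present, which does not by itself show that other tissue was included. Calb2 of the thalamic list, at 17.15 and 12.9 RPKM in WT and 14.1 and 14.5 RPKM in KI, is also on the immature neuron list. The sums were 46.1 and 50.3 RPKM in WT and 52.5 and 51.0 RPKM in KI for 7 neocortical genes, 28.2 and 27.4 RPKM in WT and 32.0 and 31.3 RPKM in KI for 7 striatal genes, 31.1 and 26.4 RPKM in WT and 33.6 and 29.3 RPKM in KI for 6 thalamic genes, and 14.3 and 14.3 RPKM in WT and 17.5 and 15.3 RPKM in KI for 6 Cajal-Retzius cell genes. None of these genes was called in limma, and the median difference was 0.21 for the neocortical, 0.15 for the striatal, -0.02 for the thalamic, 0.02 for the Cajal-Retzius and -0.07 for the hippocampal genes. Their part in the marker levels was not tested.

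The genes with a sample pattern most like that of Dcx were Ubxn2a, Tmem65 and Zmat3. Likeness was measured over the 4 samples as the root mean square difference of log2(RPKM + 1) after each gene was centred on its own mean, among 16081 tested genes with a mean of at least 1 RPKM. It was 0.00266 for Ubxn2a, 0.00341 for Tmem65 and 0.0041 for Zmat3, against a spread of Dcx itself of 0.069 around its mean. With only 4 samples, which all genes share, near matches are found for many patterns.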

How the data were processed

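Hippocampal poly(A) RNA of 2 WT and 2 KI samples was sequenced in read pairs. Per the methods and the file headers, GSNAP was run against mm10, after which ambiguous alignments and discordant mates were discarded. The authors deposited RPKM per gene of Ensembl release 74, in 1 file per sample. The counter is not given in the sources used here. A gene absent from a file was set to 0. limma 3.58.1 (R 4.3.3, mean-variance trend) was fitted to log2(RPKM + 1) of the 18436 genes that reached 0.5 RPKM in 2 or more samples, with Benjamini-Hochberg adjustment. The code was tested on simulated data. The authors used edgeR for their own comparison of these samples, and reported genes called both higher and lower in KI. No count test was run here, since the deposited values are RPKM and reads were worked out for the described genes only. Fold changes on this scale understate those of low genes.

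The depth and the reads behind a value were worked out from the whole-read steps in RPKM and GENCODE M21 exon lengths (GRCm38, the build of mm10). The exon length implied by the reads equalled that of GENCODE M21 in 7 of the 9 markers. For Sox11 it did not, and its number of reads rests on the multiple that brought the lengths closest. Poisson intervals cover counting error only. Other steps ran in Python 3.11.15 (scipy 1.17.1, pandas 2.3.3, numpy 2.4.6).

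The markers and gene lists were chosen with earlier results of these data known. All markers and Kdm1a are named, with the 3 genes nearest to Dcx in sample pattern. Of each other list at most 4 genes are named, from those with the smallest limma p. Rbfox3 and Ntng1 are named besides, for the smallest differences of the granule cell list. Samples sharing a replicate number in the labels did not deviate together (Pearson r = -0.025 over the tested genes, which are not independent). Nothing says whether replicates were processed apart, so p-values measure the spread between these samples.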

Additional observations from a re-analysis of the deposited data

How the results depend on the processing

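The tests rest on 2 samples per group, and Eomes, Mki67 and Top2a on at most 46 reads per sample. None of the markers was called under any alternative run (other pseudocount, filters, scaling, fold threshold, no trend, replicate block, leaving out a sample). Over all genes 0 were called when any sample was left out, and 20 (17 higher and 3 lower in KI) without the mean-variance trend, none of them a marker. With the replicate block 0 genes were called (smallest adjusted p of 0.359 in limma). Whether samples that share a replicate number were handled together is not given, and their lack of shared deviation does not settle it. The block left the number of calls at 0, as in the main fit.

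The median difference of the markers was 0.066 with a pseudocount of 0.1, -0.177 over the 5 markers with at least 1 RPKM in every sample and -0.094 over 6 markers after quantile normalization, and ran from -0.042 (without KI replicate 1) to 0.036 when a sample was left out. With a pseudocount of 0.1 the difference was 0.26 for Eomes and 0.07 for Mki67. Groups of 3 of 6 markers did not overlap after quantile normalization (0 higher and 3 lower), against 42.1% of all genes under that setting. When a sample was left out the number ran from 6 to 8 of 9, with fewer values to separate by construction, and was 8 without WT replicate 1. Over all genes the share was then 70.1% to 71.7%. The difference changed sign without KI replicate 1 in Igfbpl1 (-0.04), Olig1 (-0.037), Ttr (-0.24) and Slc17a6 (-0.15), without WT replicate 1 in Slc17a6 (-0.09) and Calb2 (0.13), without WT replicate 2 in Gadd45g (-0.012) and Ndnf (0.020) and without KI replicate 2 in Reln (0.0038). The untested Mki67 and Top2a also changed sign, with differences from -0.0044 to 0.044 and from -0.065 to 0.037. The cause was not tested. When a sample was left out the differences ran from 0.06 to 0.17 for Dcx, from -0.27 to -0.12 for Nes, from -0.04 to 0.21 for Igfbpl1, from -0.24 to 2.17 for Ttr, from -0.037 to 0.21 for Olig1, from -0.012 to 0.46 for Gadd45g, from -0.16 to 0.020 for Ndnf, from -0.082 to 0.0038 for Reln, from -0.25 to 0.13 for Calb2 and from -0.15 to 0.20 for Slc17a6.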
